A study of Mus musculus with 6 samples.

Results

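The Fc gamma receptor family was examined in CD11b+ cells of the mouse spleen, through the genes Fcgr1, Fcgr3, Fcgr4, Fcer1g, Fcgr2b and Fcgrt. These 6 genes were taken by symbol from a table of 55335 Ensembl genes, and all 6 were abundant enough to be tested. The libraries came from wild-type mice with a myocardial infarction (MI, 3 libraries) and from wild-type mice with a myocardial infarction and renal denervation, a procedure that cuts off the nerve supply of the kidneys (MI+RDN, 3 libraries). Every library therefore came from an animal with an infarct. The cells were isolated by flow cytometry and the submitters count 3 biological replicates a group, but the labels do not give the age of the mice, the time after infarction, or the number of mice behind each library. P-values measure the spread between these 6 libraries.

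Fc gamma receptors bind the constant part of IgG antibodies and let myeloid cells take up, or react to, antibody-coated particles. The receptors encoded by Fcgr1, Fcgr3 and Fcgr4 are activating and signal through the Fc receptor gamma chain, encoded by Fcer1g, whose cytoplasmic ITAM motif recruits the kinase Syk. The receptor encoded by Fcgr2b is inhibitory and carries an ITIM motif of its own, which recruits the lipid phosphatase SHIP-1, encoded by Inpp5d. A cell that carries both kinds reads IgG through their balance. The neonatal receptor FcRn, encoded by Fcgrt, is a different kind of molecule: it resembles MHC class I, pairs with beta-2 microglobulin inside the cell and returns IgG to the surface.

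Libraries held 21663440 to 28013900 counts. Levels are CPM, counts scaled to a common library size with TMM factors. The sort marker Itgam, which encodes CD11b, was abundant in every library, with means of 1133 ± 150 CPM for MI and 1598 ± 95.2 CPM for MI+RDN (SD, n = 3). The difference, 0.50 on the log2 scale, missed the threshold (edgeR adjusted p = 0.109). For Itgam all MI+RDN libraries lay above all MI libraries, as for 12.4% of all tested genes. In the fit over all 14849 tested genes, 1.01% passed at an adjusted p of 0.05, 0.296% as higher in MI+RDN and 0.714% as lower. In bulk RNA, fewer cells of a type and less RNA per cell cannot be told apart.

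The regions upstream of the receptor genes are shown for 4 of the members, the IgG receptors whose ratio forms the balance described further on: Fcgr4 with the largest positive difference, Fcgr3 with a smaller one, Fcgr1 with almost none and the inhibitory Fcgr2b with a slight negative one. Each is the 250 bases before the annotated start of the gene, from RefSeq on build GRCm38.p6, 5′ to 3′ on the strand of the gene. That build is older than the one the counts were made on. They lie at chr1:171018676-171018925 (Fcgr4, plus strand), chr1:171059404-171059653 (Fcgr3, minus strand, 1 of 2 listed starts), chr3:96293970-96294219 (Fcgr1, minus strand) and chr1:170976072-170976321 (Fcgr2b, minus strand). Capitals mark matches on either strand to GAGGAA, a core of sites for the myeloid factor PU.1, to TTCNNNGAA, the form of sites for STAT factors, and to TTNNGCAA, a form of C/EBP sites.
Fcgr4: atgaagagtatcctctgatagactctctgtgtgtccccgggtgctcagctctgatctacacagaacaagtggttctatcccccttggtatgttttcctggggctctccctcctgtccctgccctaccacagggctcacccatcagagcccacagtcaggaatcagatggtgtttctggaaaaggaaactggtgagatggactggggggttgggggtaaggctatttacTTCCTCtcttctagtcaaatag
Fcgr3: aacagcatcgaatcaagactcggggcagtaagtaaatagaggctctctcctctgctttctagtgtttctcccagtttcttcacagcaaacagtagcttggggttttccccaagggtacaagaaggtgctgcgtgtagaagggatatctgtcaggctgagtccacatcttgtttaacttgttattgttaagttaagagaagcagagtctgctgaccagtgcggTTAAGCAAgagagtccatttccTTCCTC
Fcgr1: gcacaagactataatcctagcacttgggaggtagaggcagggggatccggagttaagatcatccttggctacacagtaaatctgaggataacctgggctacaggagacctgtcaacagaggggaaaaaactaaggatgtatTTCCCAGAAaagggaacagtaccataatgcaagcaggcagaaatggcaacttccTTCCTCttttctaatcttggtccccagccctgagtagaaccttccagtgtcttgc
Fcgr2b: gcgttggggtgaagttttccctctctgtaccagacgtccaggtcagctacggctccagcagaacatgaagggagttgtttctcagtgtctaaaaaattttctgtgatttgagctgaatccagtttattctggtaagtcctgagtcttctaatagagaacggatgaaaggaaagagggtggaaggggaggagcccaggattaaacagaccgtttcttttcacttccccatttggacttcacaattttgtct

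Motifs were searched in windows of 300 bases, which add 50 bases after the start. The PU.1 letters occurred once in each of the 3 activating receptor windows, as TTCCTC on the strand of the gene. Counted from the annotated start as 1, with no position 0, the match began at position -22 in Fcgr4, -6 in Fcgr3 and -55 in Fcgr1. The windows of Fcgr2b, Fcer1g and Fcgrt held no such match, and 28.3% of the 32851 mouse windows of the same length held one. The STAT letters occurred in Fcgr1 alone of the 6 members, as TTCCCAGAA at position -109, and in 8.3% of all windows. The C/EBP letters occurred in Fcgr3, as TTAAGCAA at position -28, in Fcgrt, and in 10.8% of all windows. The letters were chosen after the sequences had been seen, and a match describes the sequence without showing that a factor binds there.

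With both groups infarcted, the contrast between them sets libraries from mice labelled with renal denervation against libraries from mice without that label. Anything else that differed between the groups cannot be told apart from the denervation. By edgeR's quasi-likelihood test with Benjamini-Hochberg adjustment over all genes, 0 of the 6 members passed. At an unadjusted p under 0.05 there were 4 of 6, where 19.9% of all tested genes reached that level. The libraries of the groups did not overlap for 4 of 6 members, against 26.2% of all tested genes. Of these 4, Fcgr3, Fcgr4 and Fcer1g were higher in MI+RDN (12.4% of all genes) and Fcgrt was lower (13.7%). DESeq2's Wald test called 9.08% of the genes to which it gave an adjusted p, and with it 3 of 6 members passed, namely Fcgr4 and Fcer1g as higher and Fcgrt as lower, while limma-voom called 0 of 6 and 0.748% of all genes.

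**Figure D1:**
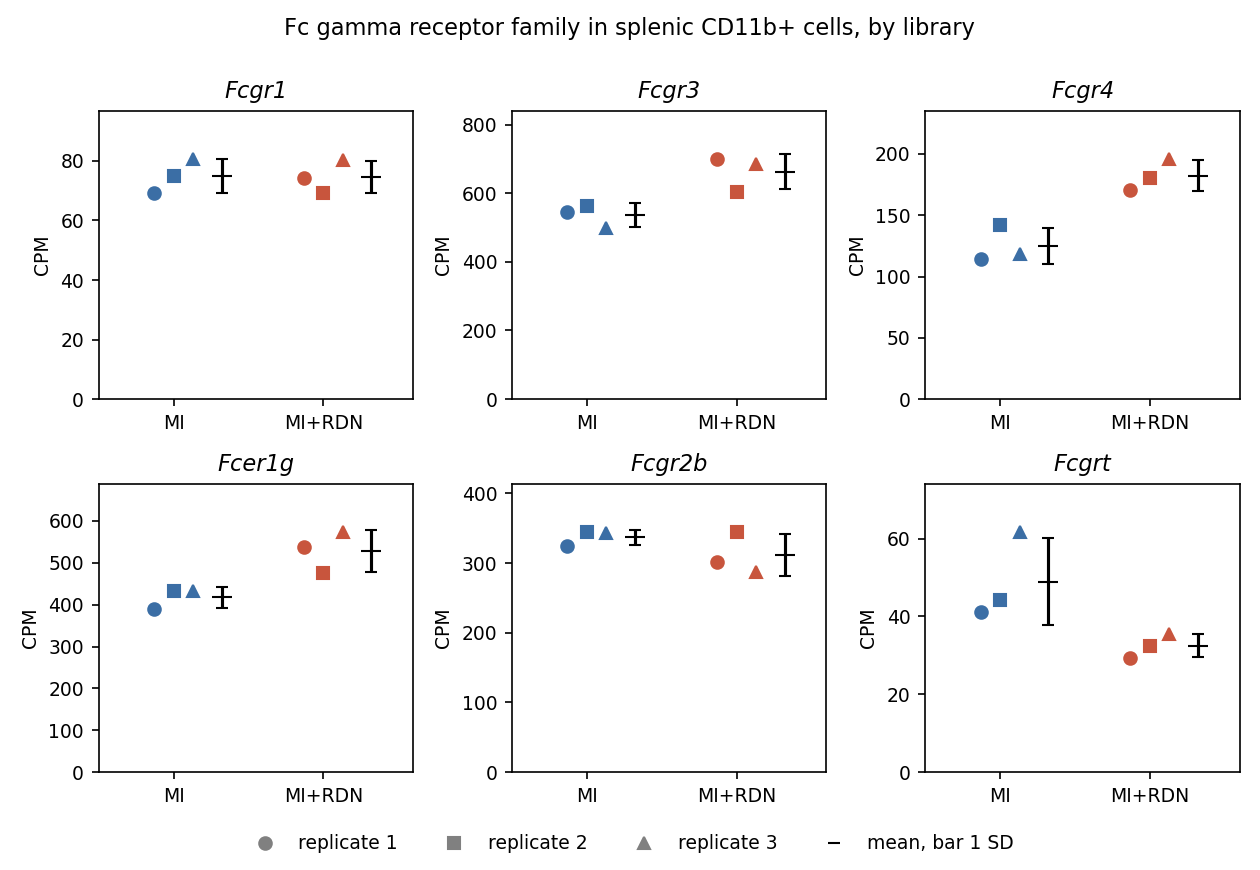
Level of each family member in CPM (vertical axes, from 0) in the 3 MI (blue) and 3 MI+RDN (red) libraries, with the mean and 1 SD in black; marker shapes are replicate numbers, which do not pair the groups. Fcgr3, Fcgr4 and Fcer1g have all MI+RDN points above all MI points, Fcgrt has them all below, and Fcgr1 and Fcgr2b overlap.

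Among the activating receptors, Fcgr4 (ENSMUSG00000059089) differed the most. It encodes the receptor of intermediate affinity found on mouse monocytes, macrophages and neutrophils. Its libraries stood at 115, 142 and 118 CPM in MI and at 171, 180 and 196 CPM in MI+RDN. The lowest MI+RDN library lay above the highest MI library, and MI replicate 2 was the nearest to the other group. The log2 fold change was 0.54 (SE 0.11, 1.46-fold, 95% interval 0.29 to 0.80), with an adjusted p of 0.0615 by edgeR and 0.00148 by DESeq2. With any 1 library left out the log2 fold change was 0.47 to 0.65.

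Fcgr3 (ENSMUSG00000059498) encodes the low-affinity activating receptor shared by neutrophils, monocytes, macrophages and NK cells. It stood at 546, 564 and 498 CPM in MI and at 700.0, 604 and 684 CPM in MI+RDN. The groups did not overlap, and MI+RDN replicate 2 was the library of its group closest to MI. The log2 fold change was 0.31 (SE 0.109, 1.24-fold, 95% interval 0.054 to 0.56, edgeR adjusted p = 0.179). Without scaling factors, where the median of all tested genes was -0.13, the log2 fold change was 0.17. Part of its sequence is shared with Fcgr2b: in the GRCm38 transcript models, 10.2% of the distinct 50-base windows of Fcgr3 also occur in Fcgr2b, and 2.7% of 100-base windows do. The handling of such reads is not given in the sources used here, so both genes carry that uncertainty.

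Fcgr1 (ENSMUSG00000015947) encodes the high-affinity receptor, which is inducible by interferon gamma and typical of macrophages and monocyte-derived cells. Its libraries stood at 69.1, 75.0 and 80.7 CPM in MI and at 74.3, 69.2 and 80.2 CPM in MI+RDN. The ranges of the groups nearly coincided. The log2 fold change was -0.0073 with a 95% interval of -0.23 to 0.22 (edgeR adjusted p = 0.977), so differences of either sign within that interval were not resolved.

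The signalling subunit Fcer1g (ENSMUSG00000058715) is needed for the surface display of the activating receptors. It stood at 389, 432 and 432 CPM in MI and at 538, 475 and 574 CPM in MI+RDN. The groups did not overlap, and MI+RDN replicate 2 was again the lowest of its group. The log2 fold change was 0.34 (SE 0.11, 1.27-fold, 95% interval 0.087 to 0.59), with an adjusted p of 0.148 by edgeR and 0.0390 by DESeq2. It was 0.20 without scaling factors.

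The inhibitory receptor Fcgr2b (ENSMUSG00000026656), which is also the main Fc gamma receptor of B cells, stood at 325, 344 and 342 CPM in MI and at 302, 345 and 287 CPM in MI+RDN. MI+RDN replicate 2 lay at the level of MI, and the other libraries of its group lay below all 3 MI libraries. The log2 fold change was -0.11 (SE 0.101, 95% interval -0.35 to 0.12, edgeR adjusted p = 0.566). It was -0.25 without scaling factors. Leaving out MI+RDN replicate 2 gave -0.21, and leaving out MI+RDN replicate 3 gave -0.076. An antisense gene that overlaps Fcgr2b, Gm38204, had at most 5 counts in a library, against 6686 to 9432 for Fcgr2b.

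The neonatal receptor Fcgrt (ENSMUSG00000003420) stood lower in MI+RDN, where Fcgr3 and Fcgr4 stood higher. Its level was 41.0, 44.1 and 61.7 CPM in MI and 29.4, 32.5 and 35.4 CPM in MI+RDN. The groups did not overlap, and MI replicate 3 stood well above the other libraries. The log2 fold change was -0.59 (SE 0.163, 1.51-fold lower, 95% interval -0.97 to -0.22), with an adjusted p of 0.109 by edgeR and 0.0206 by DESeq2. Without MI replicate 3 it was -0.39, with an edgeR adjusted p of 0.243.

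**Figure D2:**
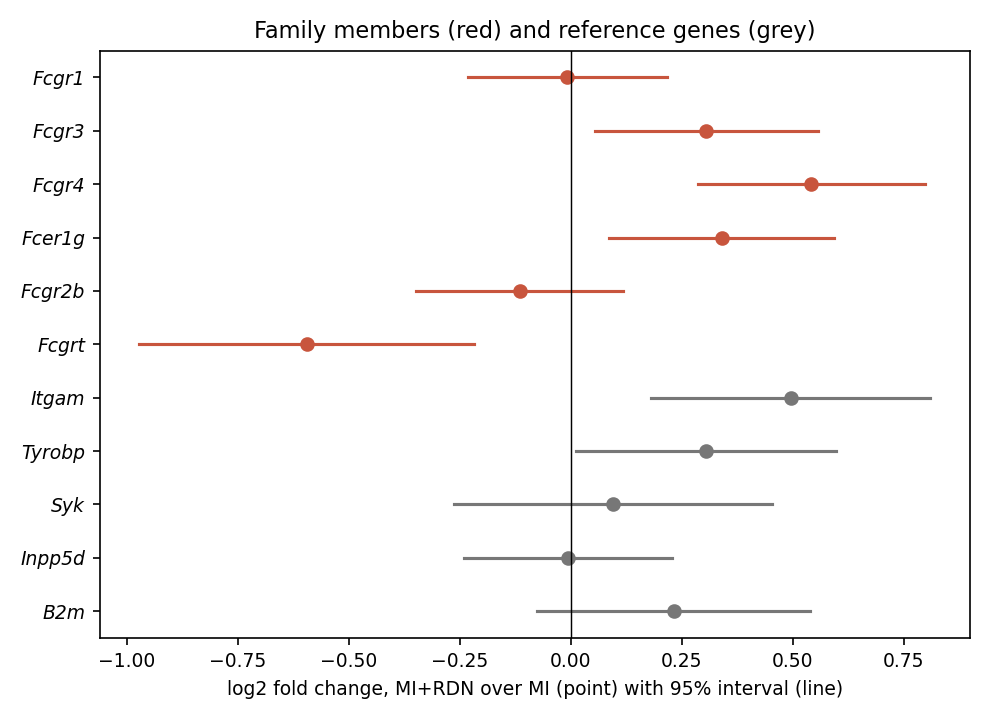
Log2 fold change of MI+RDN over MI (horizontal axis, points) with its 95% interval (lines) from the edgeR fit, for the 6 family members in red and 5 reference genes in grey. The intervals of Fcgr3, Fcgr4, Fcer1g, Itgam and Tyrobp lie above 0 and that of Fcgrt below 0, before adjustment over all genes, while those of Fcgr1 and Fcgr2b include 0.

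The activating to inhibitory balance was taken within each library as the summed CPM of Fcgr1, Fcgr3 and Fcgr4 over the CPM of Fcgr2b, a ratio that library size and scaling do not affect. These CPM are not divided by transcript length, which is 3.81 kb for Fcgr2b, 2.59 for Fcgr1, 1.35 for Fcgr3 and 1.26 for Fcgr4. The ratio therefore compares libraries and does not give the relative level of both kinds of receptor. Per kb, the share of Fcgr2b among the 4 IgG receptors was 14.4% in MI and 11.0% in MI+RDN. In CPM the activating sum was mostly Fcgr3, with an MI mean of 536 CPM against 125 for Fcgr4 and 74.9 for Fcgr1. The uncertainty over reads shared by Fcgr3 and Fcgr2b therefore bears on the balance too. The balance was 2.25, 2.27 and 2.04 in the MI libraries and 3.13, 2.48 and 3.34 in the MI+RDN libraries. All MI+RDN libraries lay above all MI libraries, with MI+RDN replicate 2 the nearest to them. The mean ratio was 2.18 ± 0.129 for MI and 2.98 ± 0.450 for MI+RDN (SD, n = 3). On the log2 scale the difference was 0.44 (SE 0.140, 1.36-fold). The exact two-sided permutation test gave p = 0.1, the smallest that 3 libraries against 3 allow, so this test cannot reach 0.05 for a single ratio. Adjusted over the 8 ratios examined, the exact permutation p was 0.2.

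Among the 3 single receptor ratios over Fcgr2b, that of Fcgr4 differed the most. It was 0.353, 0.413 and 0.346 in MI and 0.565, 0.522 and 0.682 in MI+RDN, and the groups were apart by a log2 difference of 0.67 (SE 0.139, 1.59-fold, exact permutation p = 0.1, adjusted 0.2). Fcgr3 over Fcgr2b was 1.68, 1.64 and 1.45 in MI and 2.32, 1.75 and 2.38 in MI+RDN, a log2 difference of 0.42 (SE 0.155) with the same exact p. Fcgr1 over Fcgr2b overlapped between the groups, at 0.222 ± 0.0119 in MI and 0.242 ± 0.0392 in MI+RDN (exact permutation p = 0.6, n = 3). Its log2 difference of 0.11 went from 0.0027, with MI+RDN replicate 3 left out, to 0.24, with MI+RDN replicate 2 left out. Of the 3 activating receptors, Fcgr4 and Fcgr3 were thus the ones whose ratio to the inhibitory receptor did not overlap.

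Within the activating side, Fcgr4 over Fcgr3 had means of 0.233 ± 0.0214 for MI and 0.276 ± 0.0285 for MI+RDN (SD, n = 3), with overlapping libraries (exact permutation p = 0.2, adjusted 0.32). The summed activating receptors over their gamma chain were nearly level, at 1.77 ± 0.135 in MI and 1.74 ± 0.0628 in MI+RDN (exact permutation p = 0.8, n = 3), a log2 difference of -0.017 (SE 0.0716). The gamma chain over Tyrobp, which encodes DAP12, the other ITAM adaptor of myeloid cells, was 0.507 ± 0.0516 and 0.517 ± 0.00353 (exact permutation p = 0.9, n = 3). The sign of these last 2 differences turned when single libraries were left out. Fcgrt over B2m, its light chain, was 0.0225, 0.0216 and 0.0326 in MI and 0.0131, 0.0159 and 0.0143 in MI+RDN. The MI+RDN libraries all lay below the MI libraries, a log2 difference of -0.80 (SE 0.205, exact permutation p = 0.1, adjusted 0.2).

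**Figure D3:**
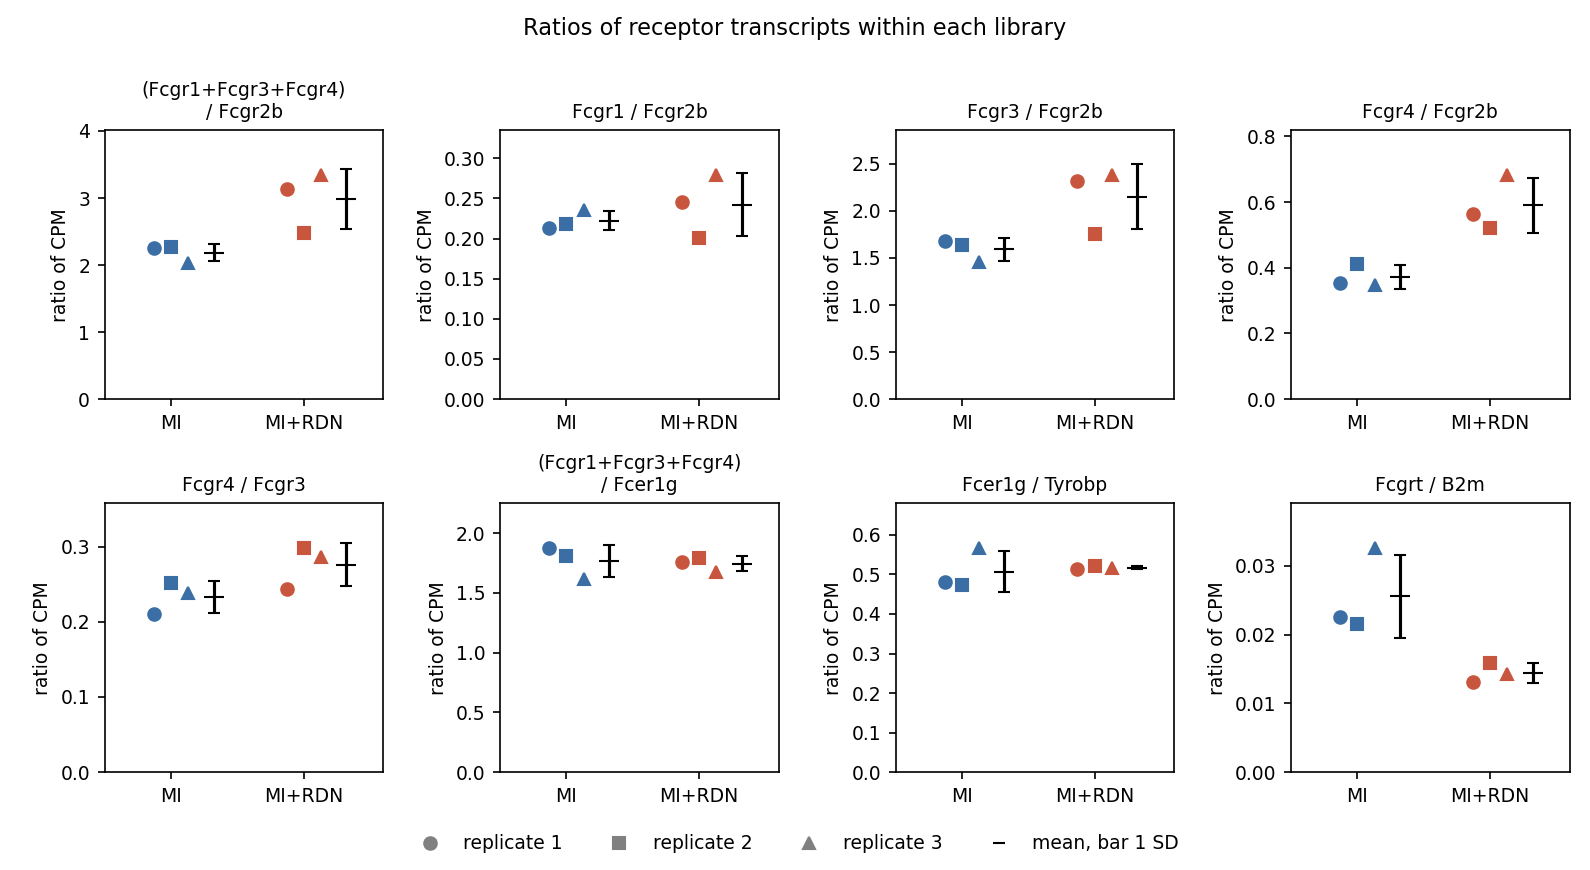
Ratios of CPM within each library (vertical axes, from 0) for the balance, its single receptors and the reference pairs, in 3 MI (blue) and 3 MI+RDN (red) libraries, with the mean and 1 SD in black. The balance is 2.04 to 2.27 in MI and 2.48 to 3.34 in MI+RDN, while the ratios to the gamma chain and of Fcer1g to Tyrobp overlap.

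Levels can be compared between genes only per length, so CPM were divided by the length of the merged coding-transcript exons in the GRCm38 models, with the unit CPM per kb. In MI the order was Fcer1g (558 ± 32.7 CPM per kb), Fcgr3 (398 ± 25.4), Fcgr4 (99.6 ± 11.8), Fcgr2b (88.5 ± 2.87), Fcgr1 (28.9 ± 2.23) and Fcgrt (27.5 ± 6.26). The libraries of Fcgr1 and Fcgrt overlapped there, and Fcgr4, at 91.3 to 113, lay just above Fcgr2b, at 85.2 to 90.4. The lengths used were 1.26 kb for Fcgr4 and 3.81 kb for Fcgr2b. Merged exons can be longer than a single transcript, so near values and the shares given below depend on this choice of length. In MI+RDN the order was the same, with Fcgr4 at 145 ± 10.2 and Fcgr2b at 81.7 ± 7.80 CPM per kb, whose libraries did not overlap. Of the summed CPM per kb of the 4 IgG receptors, Fcgr3 held 64.7 ± 1.75% in MI and 65.7 ± 2.40% in MI+RDN. The share of Fcgr4 was 16.2 ± 1.19% and 19.4 ± 1.40%, that of Fcgr1 was 4.72 ± 0.525% and 3.85 ± 0.147%, and that of Fcgr2b was 14.4 ± 0.824% and 11.0 ± 1.57%. These shares are of RNA, with no measure of protein at the cell surface.

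**Figure D4:**
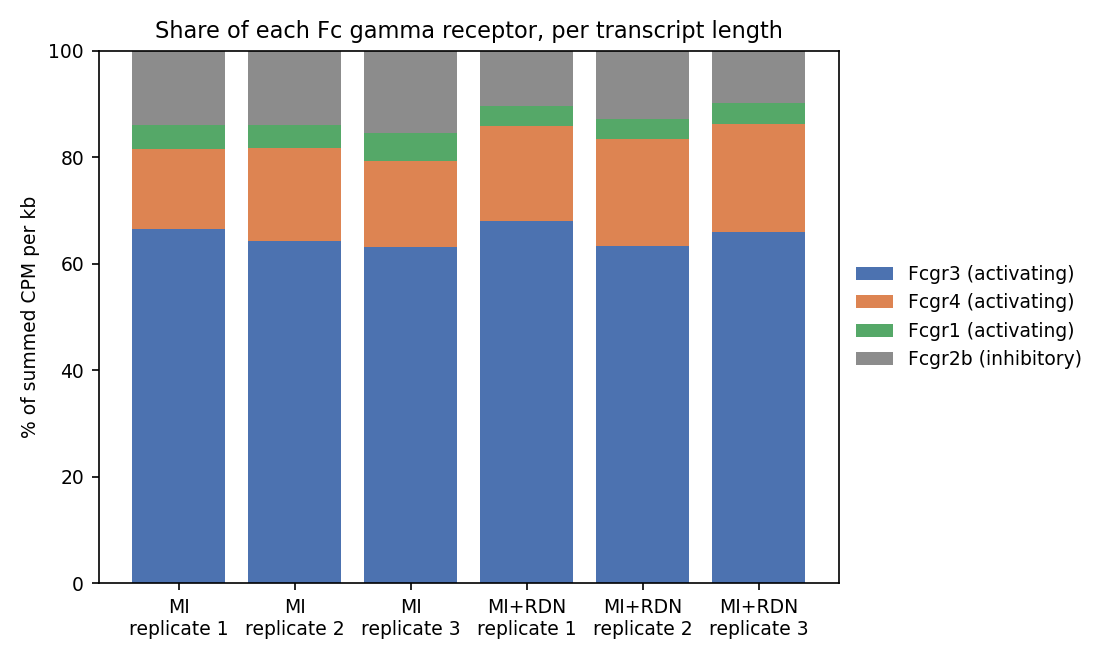
Share of each of the 4 IgG receptors in their summed CPM per kb (vertical axis, percent), 1 bar per library. Fcgr3 makes up the largest part in every library, and Fcgr2b takes 13.9% to 15.4% in the MI libraries and 9.79% to 12.8% in the MI+RDN libraries.

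The members' patterns over the 6 libraries were compared in pairs. On log2 CPM, Fcer1g had a Pearson correlation of 0.88 with Fcgr3 and 0.90 with Fcgr4, and Fcgr3 and Fcgr4 had one of 0.87. Fcgr2b had negative values with these genes, from -0.79 with Fcgr3 to -0.54 with Fcgr4. Fcgr1 followed none of the 3, with values from 0.013 to 0.41. Fcgrt had negative values with the 3, from -0.88 with Fcgr3 to -0.61 with Fcer1g. Its values were positive with Fcgr2b (0.52) and Fcgr1 (0.45). These points share libraries and scaling and include the difference between the groups, so the values are a description. Among the 8616 tested genes with a mean of at least 10 CPM, the genes most like Fcgr3 over the 6 libraries were Atg13 (r = 0.998), Steap4 (0.998) and Stx11 (0.996). Those most like Fcgr4 were Zc3h10 (0.998), Ypel2 (0.992) and Pym1 (0.992), and those most like Fcer1g were Iffo2 (0.989), Prkar2b (0.985) and Cdipt (0.983). Those most like Fcgr2b were Acvr2a (0.989), Tfrc (0.988) and Lrrcc1 (0.987). Those most like Fcgr1 were Ube2o (0.984), Gngt2 (0.983) and Uhrf1bp1 (0.97), and those most like Fcgrt were Ivns1abp (0.996), Tdrd3 (0.995) and H2-DMa (0.994). These genes were selected from the 8616 for their correlation, so the values carry no test.

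The share of all tested genes at an unadjusted p under 0.05, 19.9%, is the background for each count at that level in the lists that follow. Downstream of the activating receptors, 8 of 28 measured genes of ITAM signalling had an unadjusted p under 0.05. Without overlap, 5 were higher and 5 lower, against 12.4% and 13.7% of all tested genes. By the edgeR adjusted p, 1 of the 28 passed, and it fell. This was Vav2, a signalling protein phosphorylated downstream of Syk, at 60.1 ± 6.99 CPM in MI and 33.8 ± 0.780 CPM in MI+RDN (1.78-fold lower, edgeR adjusted p = 0.0278). Its call was lost when any library other than MI+RDN replicate 2 was left out, with adjusted p-values up to 0.112, and also without the filter on low counts (0.0615) and with the replicate number as a block (0.0521). Syk, the kinase that binds the phosphorylated ITAM, stood at 1117 ± 92.6 and 1194 ± 206 CPM, a log2 fold change of 0.095 that was -0.043 without scaling factors and -0.011 without MI+RDN replicate 1. The list's median difference was 0.072 on the log2 scale and -0.065 without scaling factors. Leaving out MI replicate 3 gave 0.033, MI+RDN replicate 1 gave 0.015 and MI+RDN replicate 3 gave 0.019. Over all tested genes the median was 0.0080 and -0.13.

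On the inhibitory side, 0 of 12 measured ITIM signalling genes passed by edgeR, and 3 had an unadjusted p under 0.05. The list's median difference was 0.041 on the log2 scale and -0.098 without scaling factors. It became 0.012 when MI replicate 3 was left out, 0.025 for MI+RDN replicate 1 and 0.022 for MI+RDN replicate 3. Inpp5d stood at 378 ± 23.1 CPM in MI and 376 ± 27.7 CPM in MI+RDN (95% interval of the log2 fold change -0.24 to 0.23). Its relative Inppl1, which encodes SHIP-2, was at 42.4 ± 5.96 and 26.4 ± 1.75 CPM (edgeR adjusted p = 0.0523), and the adaptor Dok3 was at 338 ± 38.7 and 464 ± 18.0 CPM (0.0861). Of 18 other genes for inhibitory receptors and their relatives, not all of which carry an ITIM, 0 passed by edgeR and 9 had an unadjusted p under 0.05. Their median difference was 0.21 on the log2 scale, 0.073 without scaling factors and 0.12 without MI+RDN replicate 2. Pilra, an inhibitory receptor of myeloid cells, stood at 285 ± 44.8 and 400 ± 49.2 CPM, and Cd22, that of B cells, at 136 ± 12.4 and 80.2 ± 15.5 CPM. These values lay on opposite sides of MI.

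Other users of the gamma chain and related adaptors had 0 of 9 measured genes past the threshold by edgeR, with 4 at an unadjusted p under 0.05 and a median log2 fold change of 0.20. That median was 0.064 without scaling factors, and leaving out MI replicate 3 or MI+RDN replicate 3 gave 0.078 or 0.093. Clec4e, or Mincle, a glycolipid receptor that signals through the gamma chain, stood at 183 ± 33.5 CPM in MI and 287 ± 18.8 CPM in MI+RDN (edgeR adjusted p = 0.0711). Tyrobp was at 828 ± 75.4 and 1023 ± 102 CPM, a log2 fold change of 0.30 near the 0.34 of Fcer1g. Its MI+RDN libraries all lay above its MI libraries, as those of Fcer1g did. Cd247, the zeta chain used by T and NK cells, was at 7.05 ± 0.716 and 4.74 ± 0.885 CPM. Receptors for other antibody classes and Fc-binding relatives had 0 of 9 past the threshold, 3 at an unadjusted p under 0.05 and a median of -0.36. Fcer2a, the IgE receptor of B cells, was at 25.1 ± 6.29 and 8.57 ± 2.98 CPM (edgeR adjusted p = 0.0523), and the IgM receptor gene Fcmr was at 50.5 ± 9.31 and 25.0 ± 7.53 CPM (0.0677). Fcer1a, the chain that marks the high-affinity IgE receptor, had 38 counts over the 6 libraries and was not tested.

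Genes of the phagocytic cup and its actin had 0 of 22 measured members past the threshold by edgeR, 6 at an unadjusted p under 0.05, and positive fold changes in 20. Over all tested genes, 7568 of 14849 fold changes were positive. Higher without overlap were 9 of the 22, against 12.4% of all tested genes. The median difference of this list was 0.17 on the log2 scale and 0.031 without scaling factors. Rac2, the GTPase that drives actin and the oxidase in phagocytes, stood at 1087 ± 122 CPM in MI and 1546 ± 59.9 CPM in MI+RDN (edgeR adjusted p = 0.0897). Arpc3, a subunit of the Arp2/3 complex, was at 295 ± 8.64 and 368 ± 8.13 CPM (0.104). Genes that work with FcRn in endosomal recycling had 0 of 8 past the threshold, 1 of them at an unadjusted p under 0.05. B2m was at 1920 ± 112 and 2255 ± 218 CPM, a log2 fold change of 0.23 against -0.59 for Fcgrt. That of B2m was 0.094 without scaling factors and 0.14 without MI+RDN replicate 3. The sorting nexin Snx5 was at 180 ± 15.2 and 155 ± 12.0 CPM, and Rab11a, of recycling endosomes, was at 49.3 ± 1.41 and 56.2 ± 1.0 CPM. Of the 106 measured genes of these 7 lists, DESeq2 called 17, beside its 9.08% of all genes, and edgeR called 1.

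Marker lists of the cell types that the sort could hold were read beside the receptors. As background for their counts, 0.296% of all tested genes passed as higher and 0.714% as lower. Of all tested genes, 13.7% were lower without overlap and 19.9% had an unadjusted p under 0.05. The summed level of 12 neutrophil markers was 13200 to 20239 CPM in MI and 25927 to 37070 CPM in MI+RDN. All 12 had positive fold changes, with a median of 1.03 on the log2 scale. Higher without overlap were 6 of 12, against 12.4% of all tested genes. Past the threshold as higher were 2 of 12, among them Ly6g, which rose from 43.6 ± 10.5 to 127 ± 38.0 CPM (edgeR adjusted p = 0.0425). The Ly6g call was lost without the filter on low counts (0.0793) and when any library other than MI+RDN replicate 2 was left out (up to 0.132). MI+RDN replicate 2 stood apart in the granule genes of developing neutrophils, with Mpo at 179 CPM against 19.6 and 22.2 CPM in the other libraries of its group, Elane at 80.1 against 13.6 and 13.2 CPM, and Ltf at 7975 against 3490 and 1105 CPM. Ly6C-low monocyte markers, of the patrolling cells known for high Fcgr4, had 0 of 8 past the threshold and sums of 1668 to 1834 CPM in MI and 1414 to 1673 CPM in MI+RDN. Ly6C-high monocyte markers had 1 of 8 higher, with sums of 7122 to 8420 and 5994 to 9031 CPM. Fold changes in that list were positive for 4 and negative for 4, with a median of -0.033 on the log2 scale. The B cell markers, beside Fcgr2b, had 0 of 12 past the threshold. All 12 had negative fold changes and an unadjusted p under 0.05, and 11 were lower without overlap. Their median log2 fold change was -0.87, with sums of 661 to 964 and 347 to 546 CPM. Splenic macrophage markers had 0 of 15 past the threshold, 13 with negative fold changes, 8 lower without overlap and a median log2 fold change of -0.61. Their sums were 1409 to 1617 and 1125 to 1576 CPM. The highest levels in these sums were those of Slc40a1 and Hmox1, whose groups overlapped. Conventional DC2 markers had 5 of 10 lower past the threshold, all 10 with negative fold changes and 8 lower without overlap. Their median log2 fold change was -0.97, with sums of 1928 to 2160 and 1463 to 1661 CPM. NK cell markers had 0 of 10 past the threshold and sums of 225 to 257 and 188 to 275 CPM. T cell markers had 1 of 10 lower past the threshold, all 10 lower without overlap, and sums of 75.9 to 101 and 34.3 to 56.3 CPM. No marker of these lists was at 0 counts in all libraries. Basophil and mast cell markers had 1 of 7 measured lower, Kit, with 5 of 7 negative and a median of -0.27. Their sums of 493 to 806 and 819 to 1187 CPM were nearly all Hdc, at 434 to 729 and 752 to 1159 CPM. Plasma cell markers had 0 of 8 past the threshold, with sums of 728 to 1079 and 752 to 1224 CPM. The part of these cell type differences in the values of the receptors and in their balance was not tested.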

How the data were processed

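RNA of CD11b+ cells sorted from mouse spleen was read from strand-specific libraries, and per the submitters' processing notes FastQC 0.11.2, STAR and build GRCm39 were used. The authors deposited raw counts per Ensembl gene in 1 table with a column per library; which tool counted, and how it treated shared reads, is not given in the sources used here. Symbols came from a GRCm38 annotation by gene ID, with 55154 of 55335 matched. The tests ran in R 4.3.3 using edgeR 4.0.16 (filterByExpr, TMM, quasi-likelihood F test, Benjamini-Hochberg over 14849 genes at 0.05), and each SE was derived from the F statistic. Ratios within libraries were compared by exact two-sided permutation. Alternatives were DESeq2 1.42.0, limma-voom 3.58.1, other scalings and filters, robust edgeR, a replicate block, and each library left out. The members, lists and tests were chosen with earlier results of these data known. Named genes are the members, 6 set genes (Itgam, Syk, Inpp5d, Tyrobp, B2m, Ly6g), the passing or lowest-p members of each list, and the 3 genes most correlated with each member; genes in lists that were not measured are left out of the counts. Fcer1a, Gm38204, Mpo, Elane, Ltf, Slc40a1, Hmox1, Kit and Hdc were named outside this rule, after their values were seen. The edgeR procedure was tested on simulated data with 2-fold and 4-fold changes. These are larger than the differences of the members, so that run does not bear on how well such differences are found. Figures used Python 3.11.15 and matplotlib 3.10.9.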

Additional observations from a re-analysis of the deposited data

How the results depend on the processing

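The count of members past the threshold was 0 under every alternative run but the DESeq2 Wald test, which gave 3. The log2 fold changes of Fcgr3, Fcgr4, Fcer1g, Fcgr2b and Fcgrt kept their sign in all 15 alternatives, at 0.17 to 0.35, 0.41 to 0.65, 0.20 to 0.40, -0.25 to -0.076 and -0.74 to -0.39. For the members without overlap between the groups, leaving out 1 library could hardly turn the sign. The balance differed by 0.35 to 0.57 in 10 alternatives. Its sign could not turn in the 6 that left out 1 library, as the groups did not overlap. The replicate block gives the same difference by construction. The rest used CPM per kb, the mean of log2 CPM, or Fcgr3 and Fcgr4 alone, and kept the sign. The count of all genes was 475 without scaling factors, 21 without a filter, 290 at a mean of at least 5 CPM, 1165 with the DESeq2 Wald test, 277 with robust edgeR and 0 to 67 with 1 library left out; the genes of the 7 pathway lists past the threshold were 6, 0, 4, 17, 4 and 0 to 2 in that order. The cause was not tested. With the replicate block 87 genes passed, with 0 members. Deviations of same-numbered libraries correlated at 0.018, -0.065 and 0.064, so the numbers were not taken to pair the samples, and not every library correlated best with its own number. Values near 0 changed sign. Fcgr1 was 8.2e-05 without a filter, Inpp5d 0.0013 without a filter, and Syk -0.043 without scaling factors. Gngt2 was -0.0092 with upper-quartile factors, -0.12 without scaling factors and -0.0085 at a mean of at least 5 CPM, and Uhrf1bp1 was -0.00039 and -0.11 with the former 2. With 1 library left out, Fcgr1 ranged from -0.080 to 0.049, Syk from -0.011 to 0.21, Inpp5d from -0.069 to 0.036, Ube2o from -0.12 to 0.052, Gngt2 from -0.078 to 0.12 and Uhrf1bp1 from -0.12 to 0.15. The activating to gamma chain difference ranged from -0.080 to 0.027 and that of Fcer1g to Tyrobp from -0.011 to 0.12. Member counts of 765 to 18186 per library leave the spread between libraries, more than counting, as the limit.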
